A study of Mus musculus with 45 samples.

Results

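Ferrostatin-1 (Fer-1), added before alpha-eleostearic acid (ESA), was compared with ESA alone in uninduced cells, which are primary embryonic fibroblasts (MEFs) of wild-type (WT) mice that had not been brought to senescence. The 6 libraries, 3 for ESA and 3 for ESA with Fer-1, were chosen by their labels from the 45 of the series and paired by replicate number. All 6 were stranded total RNA libraries of cells collected 12 h after ESA, and the Fer-1 group had received 2 µM Fer-1 for 1 h before it, per the labels' protocol. The labels of the samples give ESA at 2 µg/mL and the protocol gives 10 µg/mL, so the dose is uncertain. The 3 uninduced vehicle libraries, labelled EtOH (ethanol), served as the reference without ESA or Fer-1. The same step was also read in cells induced with 200 µM H2O2 or 2 µM etoposide for 24 h and grown on for 5 days, and in uninduced cells given ESA-Me, the methyl derivative of ESA, with its own label dose of 2 µg/mL and protocol dose of 20 µg/mL. No group received Fer-1 alone, so an action of Fer-1 on the cells and its action on the ESA response cannot be told apart.

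Ferroptosis is a form of regulated cell death driven by iron-dependent peroxidation of polyunsaturated fatty acids in membrane phospholipids. Glutathione peroxidase 4 reduces these lipid peroxides, using glutathione made from cystine that system xc- imports. Ferrostatin-1 is a synthetic radical-trapping antioxidant that stops the chain of lipid peroxidation, and ESA is a conjugated trienoic fatty acid that oxidises readily once it is in membranes. Cells under oxidative and electrophilic stress induce the targets of the transcription factor NRF2, while amino acid shortage and unfolded proteins engage the ATF4 and heat shock programmes. In bulk RNA, fewer cells of a type and less RNA per cell cannot be told apart.

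The 9 uninduced vehicle, ESA and ESA with Fer-1 libraries held 17.0 to 30.2 megareads in counts each, with 0.969% to 1.54% from the mitochondrial genome, and 16194 genes entered the test. Levels are given as CPM, counts scaled to a common library size with factors from the trimmed mean of M values, which compare libraries for 1 gene and not genes with each other. Of 14 fibroblast markers, all passed the filter on low counts, and their summed level was 37812 to 42756 CPM with ESA, 40274 to 40805 with Fer-1 added and 40334 to 44789.8 with vehicle. With Fer-1 added to ESA, 3 of the 14 were higher at an adjusted p under 0.05, Col1a2, Col3a1 and Pdgfrb. Of the 14, 0 were lower, and over all genes tested 10.4% were higher and 9.65% lower. The count of higher markers was 1 without replicate 2 of ESA and 1 without replicate 2 of ESA with Fer-1. Without all uninduced libraries of replicate 2, 1 or 3 it was 0, 1 and 1. Col1a1, Vim, Fn1 and Thy1 were abundant, whereas Pdgfra, Dcn and Lum had group means of 1.32 to 6.12 CPM. Xist RNA stood at 217 to 350 CPM in the 3 libraries of replicate 2 and at most 0.0719 CPM in those of replicates 1 and 3, and the deposited grouping sheet gives a repeat number that spans the 5 treatments of a state. The replicate number was therefore kept as a block in the model. Replicate 2 of ESA stood apart from the other 2 ESA libraries, with wider ratios to its Fer-1 partner.

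With Fer-1 added, 1688 genes were higher than with ESA alone and 1562 were lower at an adjusted p under 0.05 (edgeR's quasi-likelihood test with Benjamini-Hochberg adjustment). These were 10.4% and 9.65% of the genes tested, 20.1% together. The genes that fell included targets of NRF2, proteasome subunits, feedback inhibitors of ERK signalling, immediate early genes and ATF4 targets. The genes that rose included those of mitosis, cholesterol synthesis and the interferon response. A log2 fold change of at least 1 in size was reached by 315 of the genes that rose and 225 of those that fell, and the median size over all genes was 0.21. The counts rest on the pairing: without the block for the replicate number, 6 genes were higher and 23 lower, all of them among the 3250 above. The 6 were Fgfr3, Rxfp3, Id2, Acsl3, Chek2 and Ssbp2, and the lower genes included Mocos, Map1a, Fez1, Mlkl, Osgin1, Fosb and Ereg.

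The 3 ESA and 3 Fer-1 libraries did not overlap for 4096 genes, 25.3% of those tested, of which 2173 were higher with Fer-1 and 1923 lower. Among the called genes, 1666 of those higher and 1540 of those lower moved the same way in all 3 pairs. The standard deviation of the log2 ratio between the libraries of a pair, over 11837 genes with a mean of at least 2 CPM, was 0.330 in replicate 1, 0.494 in replicate 2 and 0.332 in replicate 3. A ratio of at least 1 on the log2 scale was seen for 150 genes in replicate 1, 650 in replicate 2 and 164 in replicate 3. Leaving out replicate 2 of ESA lowered the counts to 724 higher and 783 lower, and leaving out replicate 2 of ESA with Fer-1 gave 1053 and 957. Leaving out all 5 uninduced libraries of replicate 2 gave 396 higher and 445 lower, of which 833 were among the 3250 called with every library.

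Against the vehicle, ESA with Fer-1 had 0 genes past the threshold (0% of those tested), while ESA alone had 3213, which is 19.8%. At an unadjusted p under 0.05, 600 genes differed between ESA with Fer-1 and vehicle, 3.71% of those tested, and the smallest adjusted p was 0.0602. With only the libraries of the groups compared 30 genes passed, and with no filter on low counts 13 did. The libraries of uninduced cells alone and DESeq2 each gave 2 genes, Lbh and Ptprq, which in the fit of all libraries stood 0.35 and 1.59 lower on the log2 scale with Fer-1 and ESA. The median size of the log2 fold change was 0.09 for ESA with Fer-1 against vehicle and 0.20 for ESA against vehicle. These 3 contrasts use the same libraries in pairs, so their values are set side by side and were not tested against each other. A difference that missed the threshold does not show that the groups were alike, and for single genes the 95% interval of the difference from vehicle is given below, computed from the SE with 24 residual degrees of freedom.

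**Figure D1:**
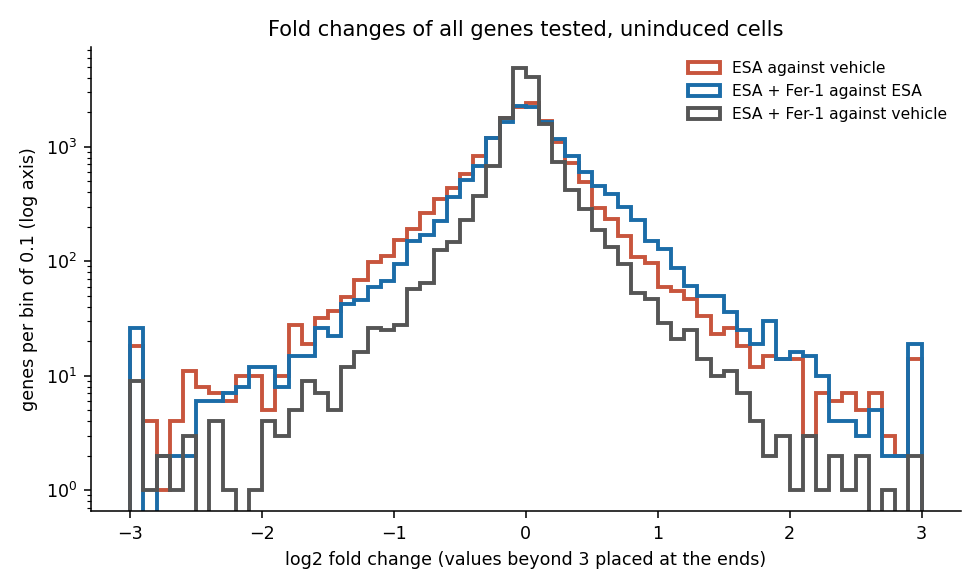
Histogram of log2 fold changes over the 16194 genes tested in uninduced cells, in bins of 0.1 on the x axis and with the number of genes on a log y axis. The lines for ESA against vehicle and ESA with Fer-1 against ESA are wide, with 907 and 965 genes at 1 or more in size, and the line for ESA with Fer-1 against vehicle is narrower, with 273.

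Genes tied to ferroptosis, protective ones included, fell in part. Of a panel of 12 genes, 7 were lower with Fer-1 and 0 were higher, with a median log2 fold change of -0.43 against 0.02 over all genes tested. Some members, such as Hmox1, Tfrc and Ptgs2, are counted again in lists below, so the counts of these lists are not independent. Heme oxygenase 1 (Hmox1, chr8:75093621-75100589, plus strand), which releases iron from heme and is a classical NRF2 target, stood at 346, 1366 and 396 CPM with ESA in replicates 1, 2 and 3 and at 116, 149 and 117 CPM with Fer-1. The vehicle libraries had 99.4, 109 and 102 CPM, so every Fer-1 library was below every ESA library and above the vehicle libraries. Hmox1 fell by 2.28 on the log2 scale (SE 0.34, adjusted p = 2.03e-05), and its difference from vehicle had a 95% interval of -0.39 to 0.94.

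Slc7a11 (chr3:49892526-50443614, minus strand) encodes the cystine-carrying subunit of system xc- and is driven by both NRF2 and ATF4. It had 52.4, 67.1 and 51.3 CPM with ESA, 11.1, 21.2 and 23.8 with Fer-1 and 12.2, 17.1 and 16.6 with vehicle, and the ESA and Fer-1 libraries did not overlap (log2 fold change -1.66, SE 0.29, adjusted p = 1.49e-04). Gclm, the modifier subunit of the enzyme that starts glutathione synthesis, went from 77.5, 131 and 76.2 CPM with ESA to 33.9, 40.5 and 35.9 CPM with Fer-1 (log2 fold change -1.34, SE 0.22, adjusted p = 7.98e-05). Ptgs2, the inducible cyclooxygenase often used as a readout of ferroptosis, had 601, 799 and 512 CPM with ESA, 239, 232 and 202 with Fer-1 and 281, 269 and 175 with vehicle (log2 fold change -1.48, SE 0.28, adjusted p = 3.42e-04). In all 3 pairs of these genes the Fer-1 library was the lower one. Tfrc, the transferrin receptor that brings iron into cells, fell by 0.93 on the log2 scale (adjusted p = 3.75e-04), from 139, 156 and 144 to 63.8, 90.6 and 77.9 CPM. Nfe2l2, which encodes NRF2 itself, fell by 0.45 (adjusted p = 0.00241), and the ferritin heavy chain Fth1 fell by 0.30 (adjusted p = 0.0334), with ESA and Fer-1 libraries that overlapped. Fth1 was not called without replicate 2 of ESA or without any 1 of the 3 Fer-1 libraries.

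Of the panel, 5 genes did not pass the test. Gpx4, the phospholipid hydroperoxide glutathione peroxidase, had 157, 203 and 167 CPM with ESA, 185, 186 and 176 with Fer-1 and 167, 185 and 192 with vehicle (log2 fold change 0.06, SE 0.10, adjusted p = 0.748). Aifm2, which encodes FSP1 and regenerates ubiquinol, had 16.3, 19.4 and 13.4 and 15.1, 16.5 and 13.5 CPM (log2 fold change -0.12, SE 0.11, adjusted p = 0.469). Their groups overlapped. Acsl4, which activates arachidonic acid for entry into phospholipids, had a log2 fold change of -0.12 (adjusted p = 0.691), and Lpcat3, which esterifies such acyl-CoA into phospholipids, one of 0.14 (adjusted p = 0.223). Chac1, a glutathione-degrading enzyme induced by ATF4, had 36.0, 44.3 and 34.8 CPM with ESA and 26.1, 35.4 and 26.2 with Fer-1 (log2 fold change -0.40, SE 0.16, adjusted p = 0.0821). Chac1 was called lower with the libraries of uninduced cells alone, with only the groups compared and with no filter on low counts.

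In the wider lists, 10 of 23 genes of ferroptosis defence fell and 3 rose, and 4 of 19 genes that promote ferroptosis fell and 2 rose. Over all genes tested 9.65% fell and 10.4% rose, so the counts that rose were near that share. The defence genes that fell lay in glutathione and thioredoxin metabolism: Srxn1, Gsr, Gclm, Txnrd1, Slc7a11, Slc3a2, Prdx6, Gss, Prdx1 and Gclc. The members of that list that rose were the desaturases Fads2 and Scd1 and the sterol enzyme Dhcr7, by 0.66, 0.43 and 0.52 on the log2 scale. The placing of Fads2 and Dhcr7 among defence genes is uncertain, and their part in ferroptosis was not tested. Among the promoting genes, Cyb5r1, Ptgs2, Tfrc and Sat1 fell and the lipid enzymes Fads1 and Elovl5 rose. Without replicate 2 or 3 of ESA, or replicate 1 or 2 of ESA with Fer-1, 1 of those 2 was called, and without all uninduced libraries of replicate 2, 6 defence genes fell. Of 16 genes of iron handling, 5 fell and 0 rose. They were Hmox1, Tfrc, Fth1, the mitochondrial iron importer Slc25a37 (log2 fold change -0.85) and the divalent metal transporter Slc11a2 (-0.35), and 3 of the 16 were called without replicate 2 of ESA.

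**Figure D2:**
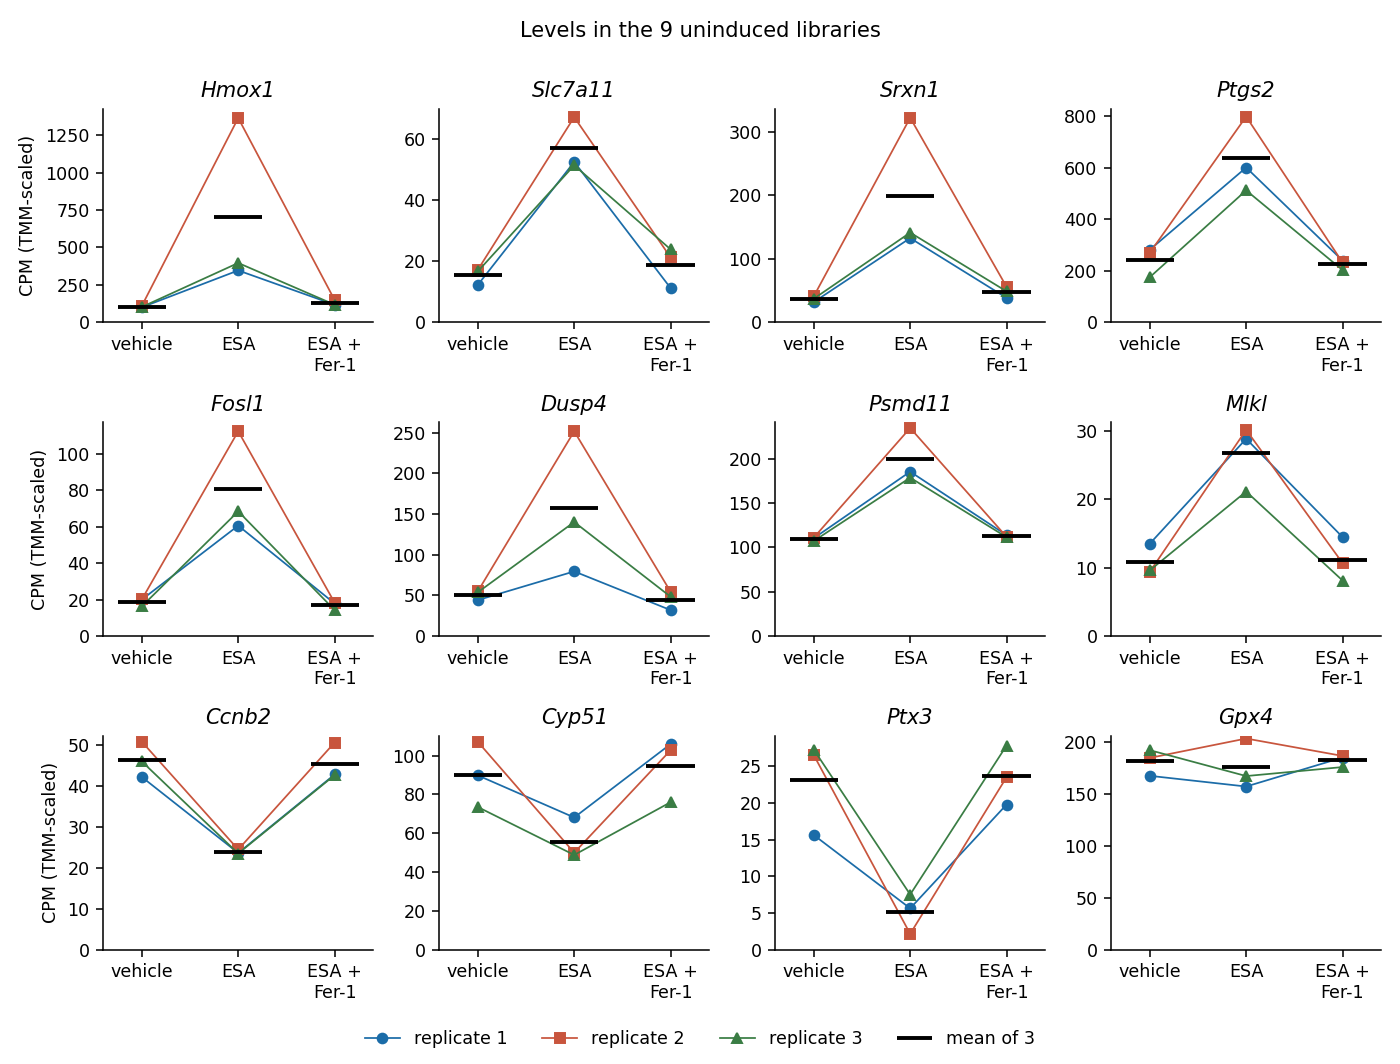
Level in CPM (linear y axes from 0) of 12 genes in the 9 uninduced libraries given vehicle, ESA or ESA with Fer-1, with a line for each replicate number and a bar for the mean of 3. The Fer-1 points of Hmox1, Slc7a11, Srxn1, Ptgs2, Fosl1, Dusp4, Psmd11 and Mlkl lie below all ESA points, those of Ccnb2, Cyp51 and Ptx3 above them, and those of Gpx4 among them.

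Targets of NRF2 fell in most cases. Of 37 targets tested, 22 fell and 0 rose, with a median log2 fold change of -0.51. By pair, the median was -0.40 in replicate 1, -0.89 in replicate 2 and -0.36 in replicate 3. Without replicate 2 of ESA, 17 targets fell, and without all uninduced libraries of replicate 2, 14 did. Sulfiredoxin (Srxn1), which repairs oxidised peroxiredoxins, had 133, 322 and 141 CPM with ESA, 38.3, 55.7 and 48.5 with Fer-1 and 31.7, 40.9 and 36.9 with vehicle (log2 fold change -2.00, SE 0.24, adjusted p = 1.61e-06). All 3 Fer-1 libraries were far below the ESA libraries, and each was above the vehicle library of its own replicate. Sqstm1, the autophagy receptor p62 that also releases NRF2 from KEAP1, went from 842, 1689.8 and 862 CPM to 376, 451 and 366 CPM (log2 fold change -1.47, SE 0.18, adjusted p = 1.95e-06). Osgin1 fell by 2.31 on the log2 scale (adjusted p = 9.75e-06), from 10.9, 30.2 and 12.1 to 3.37, 3.46 and 3.24 CPM.

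Further NRF2 targets that fell were Gsr, which reduces oxidised glutathione (log2 fold change -0.87), Txnrd1, which reduces thioredoxin (-1.02), Pgd of the NADPH-producing pentose phosphate pathway (-0.86), and the detoxifying enzymes Cbr3 (-1.23) and Gsta4 (-1.91). Nqo1, a quinone reductase, had 30.0, 54.7 and 23.9 CPM with ESA, 20.3, 24.6 and 22.3 with Fer-1 and 17.8, 16.4 and 14.1 with vehicle (log2 fold change -0.65, SE 0.19, adjusted p = 0.0164). Its ESA and Fer-1 libraries overlapped, every Fer-1 library was above every vehicle library, and the 95% interval of the difference from vehicle was 0.07 to 0.89. The 15 targets that did not pass the test included Txn1, Gstm1, Me1, Ftl1 and Keap1.

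The promoter window of Srxn1 is shown because it holds matches to motifs of both NRF2 and AP-1, and it was chosen after its values were seen. RefSeq windows on GRCm38.p6 run from 250 bases before to 50 bases after a listed gene start. Bases are counted from 1 at the 5′ end. In the line below, capitals mark TGANTCA (AP-1) at bases 149 and 206, the antioxidant response element core TGACNNNGC on the opposite strand at base 279, and the xenobiotic response element core GCGTG on the opposite strand at bases 157 and 296; it lies at chr2:152105274-152105573, plus strand.
Srxn1: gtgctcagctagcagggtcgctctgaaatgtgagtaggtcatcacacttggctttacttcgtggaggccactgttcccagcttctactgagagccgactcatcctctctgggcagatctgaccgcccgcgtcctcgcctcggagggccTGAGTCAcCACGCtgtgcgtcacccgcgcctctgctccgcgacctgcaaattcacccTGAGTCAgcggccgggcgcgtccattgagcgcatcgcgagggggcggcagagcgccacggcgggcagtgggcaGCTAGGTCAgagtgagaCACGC
Both strands were searched, and of all 32851 windows 12.39% held TGACNNNGC, 7.808% held TGANTCA and 32.39% held GCGTG. Of the 79 genes named here that fell, 56 had a window, and the first listed window of each held TGACNNNGC in 9 (16.07%) and TGANTCA in 9 (16.07%). Among the 39 with a window of the 52 named genes that rose, 4 (10.26%) held TGACNNNGC and 2 (5.128%) held TGANTCA. The xenobiotic response element core was in 18 (32.14%) of the 56 windows and 21 (53.85%) of the 39. Of the motifs described below, the heat shock element core was in 5 (8.929%) and 5 (12.82%). A CArG box was in 1 (1.786%) and 0, and CRE in 0 and 0. The named genes were chosen in part by list, NRF2 targets included, and by their values. Their shares are thus not a neutral comparison with all windows, and none was tested. A match is a description of the letters and does not show that a factor binds there.

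Genes driven by ERK signalling fell together with Fer-1. Of 25 feedback inhibitors and ligands of the EGF receptor, 18 fell and 1 rose, with a median log2 fold change of -0.87. Dusp4, a phosphatase that switches off ERK, had 79.4, 252 and 140.1 CPM with ESA, 31.8, 54.4 and 48.2 with Fer-1 and 44.1, 54.8 and 53.6 with vehicle (log2 fold change -1.72, SE 0.19, adjusted p = 5.24e-07). The ESA libraries differed widely among themselves, and each was above every Fer-1 library. Dusp6, a cytoplasmic phosphatase of ERK, went from 44.8, 63.9 and 54.7 to 25.3, 22.6 and 22.4 CPM (log2 fold change -1.20, SE 0.16, adjusted p = 5.13e-06). Hbegf, a membrane-anchored ligand of the EGF receptor, had 352, 393 and 388 CPM with ESA, 173, 142 and 142 with Fer-1 and 210.4, 158 and 185 with vehicle (log2 fold change -1.32, SE 0.18, adjusted p = 1.13e-05). The ligands Areg and Ereg fell by 3.85 and 1.89 on the log2 scale at low levels, Areg having 1.08, 3.48 and 1.26 CPM with ESA and 0.0874, 0.0577 and 0.212 with Fer-1. The member that rose was the ligand Nrg1, by 0.82, and it was not called without replicate 2 of ESA or of ESA with Fer-1. The median of this list for ESA with Fer-1 against vehicle was -0.18.

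Of 28 immediate early genes, 13 fell and 0 rose, with a median of -0.49. Egr2, a zinc finger transcription factor, had one of the smallest adjusted p-values of the comparison. Its level was 41.7, 58.1 and 57.5 CPM with ESA, 17.4, 17.3 and 17.9 with Fer-1 and 22.7, 19.7 and 25.5 with vehicle (log2 fold change -1.56, SE 0.14, adjusted p = 1.66e-08). Every Fer-1 library was also below every vehicle library, with a 95% interval of -0.65 to -0.07 for the difference, though that contrast had no gene past the threshold. Fosl1, a FOS-family subunit of AP-1, fell from 60.6, 112 and 68.4 to 17.8, 18.3 and 14.2 CPM (log2 fold change -2.23, SE 0.26, adjusted p = 1.24e-06). Fosb fell by 2.49 (adjusted p = 1.13e-05), from 7.98, 11.9 and 8.34 to 1.75, 1.85 and 1.38 CPM, Myc by 1.04, Jun by 0.86 and Atf3 by 1.77 on the log2 scale. Fos, Egr1, Junb and Ier5 did not pass the test.

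Egr2 had the smallest adjusted p of the named genes with a promoter window, and window 3 of its 5 listed starts is shown because CArG boxes, the sites of serum response factor, are a known feature of this gene family. Capitals mark a CArG box at base 179 and TGACNNNGC on the opposite strand at base 192; the window lies at chr10:67537619-67537918, plus strand.
Egr2: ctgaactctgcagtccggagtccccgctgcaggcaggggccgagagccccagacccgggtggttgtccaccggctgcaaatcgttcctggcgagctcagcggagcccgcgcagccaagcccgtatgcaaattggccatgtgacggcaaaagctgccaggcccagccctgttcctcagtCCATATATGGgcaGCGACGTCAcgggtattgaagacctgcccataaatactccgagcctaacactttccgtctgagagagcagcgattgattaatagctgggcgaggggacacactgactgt
A CArG box was found in 1.629% of all windows. Windows 3 to 5 of the 5 listed starts of Egr2 overlap and share both matches. The windows of Psmd11, Gabarapl1 and Gdf15 held none of the 6 motifs searched, which also comprised TGACGTCA (CRE, in 1.79% of all windows) and GAANNTTC (the heat shock element core, in 7.86%), and those of Mlkl and Psmd1 held GCGTG.

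Targets of ATF4, the factor translated when amino acids run short or proteins misfold, fell in 23 of 35 cases and rose in 1, with a median of -0.37. Gdf15, a stress-induced hormone, had 26.2, 46.9 and 31.9 CPM with ESA, 11.8, 24.5 and 13.8 with Fer-1 and 11.5, 18.6 and 16.0 with vehicle (log2 fold change -1.09, SE 0.13, adjusted p = 1.51e-06). The tRNA synthetase gene Nars fell by 0.50, the stress gene Nupr1 by 0.52, the cationic amino acid transporter Slc7a1 by 0.54 and Ddit3, which encodes CHOP, by 0.54 on the log2 scale. Atf4 itself fell by 0.21 (adjusted p = 0.0313). Slc38a2, an amino acid transporter, rose by 0.42. Without all uninduced libraries of replicate 2, 13 members fell and 0 rose. Chaperones of the endoplasmic reticulum did not move in the same way: 1 of 20 genes fell, Atf6 by 0.52, 0 rose, and the median was 0.02. Hspa5, Hsp90b1, Dnajb9 and Xbp1 were among the 19 that did not pass the test. Over all genes tested 9.65% fell and 10.4% rose, so these counts were near or under those shares. With the libraries of uninduced cells alone, 4 of the 20 fell and 3 rose.

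Proteasome genes fell almost as a whole. Of 31 subunits, 30 fell and 0 rose, and Psmb5 was the member that did not pass. The median was -0.49, within a range of -0.82 to -0.28. By pair it was -0.42 in replicate 1, -0.66 in replicate 2 and -0.44 in replicate 3, and 25 subunits fell without replicate 2 of ESA. Psmd11, a lid subunit (chr11:80428615-80473248, plus strand), had 185, 235 and 179 CPM with ESA, 114, 112 and 112 with Fer-1 and 110.4, 111 and 107 with vehicle (log2 fold change -0.82, SE 0.09, adjusted p = 5.24e-07). Psmd1, a base subunit, had 284, 326 and 267, 187, 197 and 194 and 194, 193 and 182 CPM in the same order of groups (log2 fold change -0.60, SE 0.07, adjusted p = 6.30e-07). Every ESA library of both genes was well above the Fer-1 and vehicle libraries. The 95% interval of the log2 difference from vehicle was -0.15 to 0.22 for Psmd11 and -0.11 to 0.16 for Psmd1. Psmc2, an ATPase subunit, fell by 0.66 and Psma7, of the core, by 0.64.

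Heat shock genes fell in 11 of 23 cases and rose in 0, with a median of -0.25. This count depended on single libraries: 4 fell without replicate 2 of ESA, 6 without replicate 2 of ESA with Fer-1, and 3 and 6 without all uninduced libraries of replicate 2 or 3. Hspb8, a small heat shock protein, had 116, 165 and 121 CPM with ESA, 83.4, 96.8 and 84.2 with Fer-1 and 77.5, 81.1 and 77.8 with vehicle (log2 fold change -0.60, SE 0.09, adjusted p = 1.80e-05). The mitochondrial chaperonin Hspd1 fell by 0.55 and the HSP110-family gene Hspa4 by 0.36 on the log2 scale. Hspa1a, with 9.95, 35.7 and 16.9 CPM with ESA and 6.21, 4.21 and 3.61 with Fer-1, shares reads with its near-identical copy Hspa1b, so its value is uncertain. Of 5 metal response genes 4 fell and 0 rose, and without all uninduced libraries of replicate 2 the count was 1. The metallothioneins Mt2 and Mt1, which bind zinc and copper, fell by 1.60 and 0.73, the metal-responsive factor Mtf1 by 0.39 and the zinc exporter Slc30a1 by 0.57; Mt1 was not called without replicate 2 of ESA.

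Lipid synthesis genes moved the other way. Of 26 genes of cholesterol synthesis and uptake, 21 rose and 0 fell, with a median of 0.51. By pair the median was 0.53, 0.57 and 0.42 in replicates 1, 2 and 3, and without all uninduced libraries of replicate 2 13 rose. Cyp51, the lanosterol demethylase, had 68.1, 49.9 and 48.8 CPM with ESA, 106, 103 and 76.0 with Fer-1 and 89.8, 107 and 73.5 with vehicle (log2 fold change 0.76, SE 0.11, adjusted p = 2.42e-05). Fdft1, squalene synthase, had 30.4, 27.9 and 24.6, 50.5, 44.7 and 36.3 and 41.6, 51.9 and 38.2 CPM in the same groups (log2 fold change 0.66, SE 0.10, adjusted p = 5.04e-05). In both genes every Fer-1 library was above every ESA library. Hmgcs1, Insig1, Idi1 and Stard4 rose by 0.77, 0.79, 0.86 and 0.77 on the log2 scale, whereas Mvd was among the 5 that did not pass.

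Of 16 genes of fatty acid synthesis and desaturation, 8 rose and 0 fell, and 5 rose without replicate 2 of ESA, also 5 without replicate 1 of ESA with Fer-1, and 4 and 5 without all uninduced libraries of replicate 2 or 1. Fads2, the delta-6 desaturase that makes polyunsaturated fatty acids, had 61.5, 58.7 and 53.7 CPM with ESA, 87.3, 107 and 81.8 with Fer-1 and 82.9, 111 and 76.2 with vehicle (log2 fold change 0.66, SE 0.11, adjusted p = 5.43e-05). Fads1, Scd1, Scd2 and Elovl6 rose by 0.41, 0.43, 0.53 and 0.42. Acsl3, which activates fatty acids and favours monounsaturated ones, rose by 0.76 (adjusted p = 5.13e-05) from 16.3, 12.0 and 13.1 to 26.0, 21.4 and 22.4 CPM, and it was also called without the block. Fasn, Acaca, Acly and Srebf1 did not pass.

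Targets of PPAR and genes of fatty acid oxidation were mixed, with 7 of 27 higher and 3 lower. For the lists of this paragraph, the shares over all genes tested were 10.4% higher and 9.65% lower, and the 3 lower here are near that share. The lipid chaperone Fabp4 and the lipid droplet protein Plin4 rose by 1.04 and 1.54, and Acadl, Angptl4 and Cd36 fell by 0.28, 1.56 and 0.89 on the log2 scale. Without all uninduced libraries of replicate 2, 2 members were higher and 0 lower, and without those of replicate 1 or 3, 3 and 4 were higher. The lower count was 1 without replicate 2 of ESA, and also 1 without replicate 2 of ESA with Fer-1. Of 27 genes that handle acyl-CoA and lipid peroxides 3 rose, Acsl3, Akr1c14 and Gpx7, and 7 fell, among them Acsbg1 (-1.36) and Pla2g6 (-0.56), and 3 fell without replicate 2 of ESA. Without all of replicate 2, 1 rose and 2 fell. In the prostaglandin pathway, 3 of 13 genes fell, Ptgs2, the synthase Ptges (adjusted p = 0.00569, not called without replicate 2 of ESA) and the transporter Slco2a1 (-0.97), and the receptor Ptgfr rose (1.82) but was not called without replicate 2 or 3 of ESA or replicate 2 of ESA with Fer-1. Of 6 targets of the aryl hydrocarbon receptor, Cyp1b1 rose by 1.27 and Nqo1 fell, Nqo1 not being called without replicate 2 of ESA or replicate 1 or 2 of ESA with Fer-1, and the classical targets Cyp1a1 and Cyp1a2 did not pass the filter on low counts.

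Genes of cell division rose. Of 26 mitosis genes, 25 rose and 0 fell, with a median of 0.82, and Mki67 was the member that did not pass. Ccnb2, a mitotic cyclin, had 23.6, 24.5 and 23.5 CPM with ESA, 42.8, 50.6 and 42.6 with Fer-1 and 42.1, 50.8 and 45.9 with vehicle (log2 fold change 0.92, SE 0.16, adjusted p = 1.07e-04). Birc5, which encodes survivin of the chromosomal passenger complex, had 26.0, 28.3 and 27.2 CPM with ESA and 48.9, 53.1 and 49.0 with Fer-1 (log2 fold change 0.89, SE 0.15, adjusted p = 8.68e-05). All Fer-1 libraries of both genes were well above all ESA libraries. Cdk1, Aurkb, Plk1 and Top2a rose by 0.67, 0.91, 0.85 and 0.80 on the log2 scale. The count was 15 without replicate 2 of ESA and 6 without all uninduced libraries of replicate 2. The median ratio was 0.72 in replicate 1, 1.04 in replicate 2 and 0.71 in replicate 3.

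Of 29 DNA replication genes, 14 rose and 0 fell, with a median of 0.32. Thymidine kinase Tk1 had 24.9, 22.3 and 23.2 CPM with ESA, 42.9, 45.9 and 40.3 with Fer-1 and 43.6, 48.8 and 43.8 with vehicle (log2 fold change 0.88, SE 0.18, adjusted p = 6.32e-04). The DNA ligase Lig1, the ribonucleotide reductase subunit Rrm1 and the sliding clamp Pcna rose by 0.53, 0.48 and 0.32. Of the MCM helicase genes Mcm4 rose by 0.24, and Mcm2, Mcm3, Mcm5, Mcm6 and Mcm7 did not pass. The count fell to 7 without replicate 2 of ESA, to 9 without replicate 3 of ESA with Fer-1, and to 3, 6 and 9 without all uninduced libraries of replicate 2, 3 or 1. Among 25 p53 targets, 8 fell and 4 rose. Over all genes tested 9.65% fell and 10.4% rose, so the count of p53 targets that rose was near that share. The cell cycle inhibitor Cdkn1a had 424, 633 and 486 CPM with ESA, 337, 379 and 347 with Fer-1 and 350.1, 362 and 394 with vehicle (log2 fold change -0.53, SE 0.09, adjusted p = 6.68e-05). The death receptor gene Tnfrsf10b, the nuclease Aen and the metabolic regulator Tigar fell by 0.44, 0.45 and 0.43, and Fas, Sesn1, Ddb2 and Gtse1 rose, of which 1 was called without replicate 2 of ESA and 1 and 2 without all uninduced libraries of replicate 2 or 3.

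Interferon response genes rose in 10 of 22 cases and fell in 0, with a median of 0.63. Stat2, a subunit of the interferon-activated complex ISGF3, had 15.1, 10.3 and 12.5 CPM with ESA, 26.6, 19.0 and 20.5 with Fer-1 and 23.4, 16.4 and 19.0 with vehicle (log2 fold change 0.80, SE 0.12, adjusted p = 3.13e-05). The transcription factor Irf1 had 9.34, 9.85 and 12.0, 19.3, 21.5 and 21.7 and 15.3, 19.9 and 22.8 CPM (log2 fold change 1.01, SE 0.16, adjusted p = 6.69e-05). The guanylate-binding protein Gbp2, the RNA sensors Ifih1 and Rigi and the effector Ifit1 rose by 1.03, 0.88, 0.47 and 1.56 on the log2 scale, and Isg15, Irf7 and Usp18 did not pass. The count was 6 without replicate 2 of ESA, 6 without replicate 3 of ESA, 6 without replicate 2 of ESA with Fer-1, and 3 and 6 without all uninduced libraries of replicate 2 or 3.

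Of 27 secreted inflammatory factors, 10 were lower, 2 higher and 15 did not pass the test. Over all genes tested 9.65% were lower and 10.4% higher, so the count that was higher was near that share. Csf1, the macrophage growth factor, had 706, 1426 and 946 CPM with ESA, 420.0, 553 and 477 with Fer-1 and 535, 701 and 527 with vehicle (log2 fold change -1.04, SE 0.16, adjusted p = 2.56e-05). The cytokine Lif went from 12.3, 34.8 and 22.8 to 6.34, 10.7 and 9.97 CPM (log2 fold change -1.32, SE 0.20, adjusted p = 2.61e-05). Ccl2 and Il11 fell by 1.13 and 1.58, and Il6, Cxcl1 and Tnf did not pass. The long pentraxin Ptx3 (chr3:66219910-66225805, plus strand) rose, with 5.63, 2.16 and 7.51 CPM with ESA, 19.8, 23.5 and 27.8 with Fer-1 and 15.6, 26.5 and 27.2 with vehicle (log2 fold change 2.25, SE 0.28, adjusted p = 1.95e-06). Cxcl12 also rose, by 0.70, and 1 of the 2 was called without replicate 2 of ESA. The median of the list was -0.36.

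Among 25 executors of cell death, 6 rose and 3 fell. Over all genes tested 10.4% rose and 9.65% fell, so the count that fell was near that share. Mlkl (chr8:111311797-111338177, minus strand), the pore-forming effector of necroptosis, had 28.9, 30.2 and 21.1 CPM with ESA, 14.5, 10.7 and 8.12 with Fer-1 and 13.5, 9.39 and 9.59 with vehicle (log2 fold change -1.29, SE 0.12, adjusted p = 3.81e-08). Its ESA and Fer-1 libraries were far apart in every pair, and it was among the genes called without the block. Its upstream kinase Ripk3 fell by 0.43 and the survival gene Bcl2l1 by 0.51. The caspase genes Casp12 and Casp4 rose by 1.42 and 1.36, and the BH3-only genes Bmf and Bcl2l11 by 1.21 and 0.55. Without all uninduced libraries of replicate 2, 2 were higher and 1 lower, and without replicate 2 of ESA 1 was lower. Gsdmd, Ninj1, Bax and Ripk1 did not pass.

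Other lists moved little or in both directions. Several of their counts were near the shares over all genes tested, 10.4% higher and 9.65% lower. Extracellular matrix genes rose in 7 of 25 cases, led by Col3a1 (0.54), and fell in 3, Tnc (-0.71), Loxl3 (-0.44) and Loxl2 (-0.19); 4 rose without replicate 2 of ESA, 4 without replicate 2 of ESA with Fer-1, and 0 and 4 without all uninduced libraries of replicate 2 or 3, and 1 fell without those of replicate 2. Of 25 contractile, SRF and YAP target genes 2 rose, Ajuba and Amotl2, and 4 fell, Itga5 (-0.75), Ccn2, Ankrd1 and Axl. Single libraries decided these counts, with 0 higher without replicate 2 of ESA, and 1 lower without replicate 3 of ESA with Fer-1 and 2 without replicate 1 or 3 of ESA or replicate 1 or 2 of ESA with Fer-1. With the libraries of uninduced cells alone, 11 were higher. Glycolysis and hypoxia genes gave 4 of 27 lower, Vegfa (-1.08), Hk2 (-0.53), Slc2a1 (-0.68) and Gpi1, and Pdk1 higher by 0.29, with 2 lower and 0 higher without replicate 2 of ESA. With the libraries of uninduced cells alone, 13 of these were lower. Of 27 lysosome and autophagy genes 4 fell and 0 rose: Gabarapl1, an ATG8-family protein of autophagosomes (log2 fold change -0.81, adjusted p = 5.24e-07), Sqstm1, and the proton pump subunits Atp6v1h and Atp6v1b2. Of the 13 protein-coding genes of the mitochondrial genome, edgeR's quasi-likelihood test and DESeq2 each called 0 in either direction, and 2 were higher when no filter on low counts was used.

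Markers of other cell types were mostly low. For the counts called in this paragraph, the shares over all genes tested were 10.4% higher and 9.65% lower. A single call in a list of 4 or 5 is near those shares. Macrophage markers summed to 52.5 to 62.7 CPM with ESA, 27.0 to 52.7 with Fer-1 and 29.0 to 56.3 with vehicle, and 3 of 9 fell, Adgre1, Cd68 and C1qb. The macrophage count was 0 without replicate 2 of ESA, 1 without replicate 2 of ESA with Fer-1, 5 without replicate 1 of ESA and 1 with only the groups compared. Endothelial markers summed to 4.18 to 7.98 CPM with ESA and 2.45 to 3.23 with Fer-1, with Cldn5 at 0 in all 9 libraries and 1 of 4 tested lower, Esam. Epithelial markers summed to 21.8 to 38.3 and 21.6 to 23.0 CPM, nearly all from Krt19, with 0 of 2 called, and skeletal muscle markers to 44.3 to 86.3 and 41.1 to 60.2 CPM, nearly all from Des, with 0 of 2 called and Myf5 at 0. Neural and glial markers gave 1 higher, Map2, and 1 lower, Nes, of 5 tested, with Snap25 at 0, and summed to 1032 to 1192 CPM with ESA and 643 to 694 with Fer-1, nearly all from Nes; Map2 was not called without replicate 2 of ESA. Both adipocyte markers tested rose, Fabp4 and Pparg, with Cidec at 0, and the list summed to 15.1 to 17.8 and 23.2 to 34.8 CPM. Pparg was not called without any 1 of the 3 ESA libraries, or without replicate 1 or 2 of ESA with Fer-1. Of 5 chondrocyte markers Col2a1 and Acan rose, and the list summed to 369 to 643 and 713 to 959 CPM. The chondrocyte count was 0 without replicate 2 of ESA and 0 without replicate 1 or 2 of ESA with Fer-1, and 1 without replicate 1 of ESA. The part of these cells in the gene groups above was not tested.

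**Figure D3:**
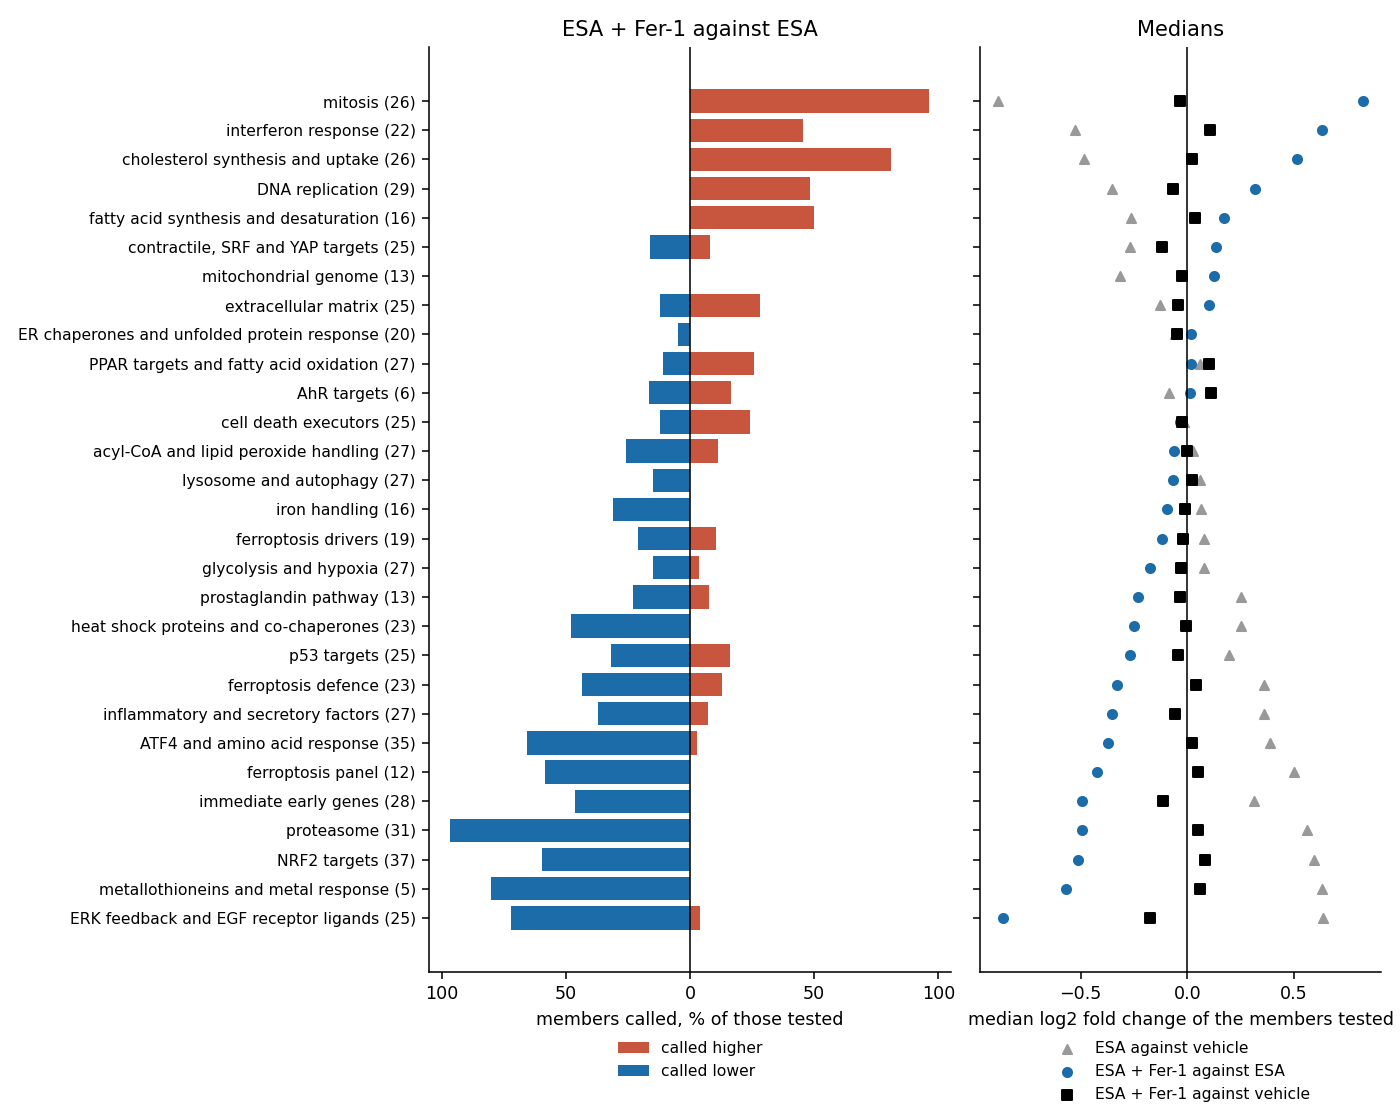
For 29 gene lists (number of members tested in brackets), the left panel gives the percent of members called higher (right of 0) or lower (left of 0) with Fer-1 and ESA against ESA, and the right panel the median log2 fold change of the members in 3 contrasts of uninduced cells. The highest medians are those of mitosis, interferon response and cholesterol synthesis genes, with 25 of 26, 10 of 22 and 21 of 26 higher, proteasome genes have 30 of 31 lower, and the medians of ESA with Fer-1 against vehicle lie between -0.18 and 0.11.

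**Figure D4:**
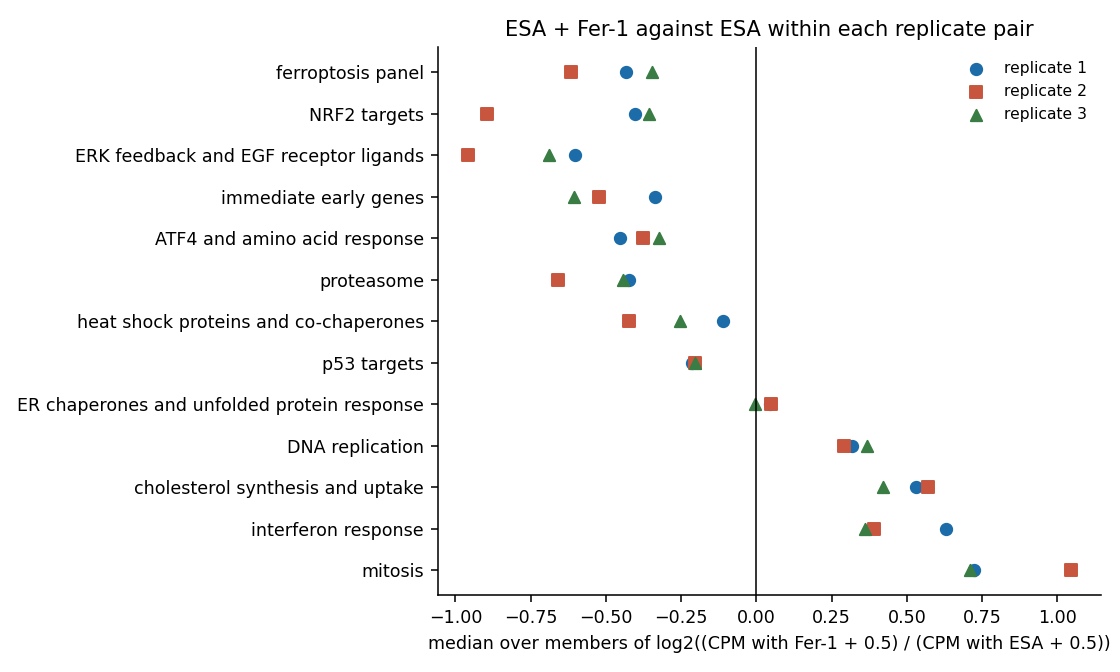
Median over the members of 13 lists of the log2 ratio of CPM with Fer-1 and ESA to CPM with ESA, after adding 0.5 CPM, within each replicate pair. Replicate 2 is the farthest from 0 for NRF2 targets (-0.89), proteasome genes (-0.66) and mitosis genes (1.04), and the 3 pairs are on the same side of 0 for those lists.

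By the size of the change, among genes with a mean of at least 2 CPM and 1 direction in all pairs, those that rose most included Ptx3, Lrrc17, Palmd, Matn3, Rgs4, Gja5, Zbtb8b, Slc6a12, Megf6, Serpinb1a and Slc24a3, with log2 fold changes from 1.81 to 2.25. Rgs4, which damps G protein signalling, had 56.7, 14.6 and 38.9 CPM with ESA, 159, 123 and 138 with Fer-1 and 129, 129 and 129 with vehicle (log2 fold change 2.03, SE 0.36, adjusted p = 1.61e-04). Lrrc17, a secreted leucine-rich repeat protein, had 9.67, 5.09 and 13.2, 25.4, 58.9 and 44.1 and 30.4, 73.9 and 52.3 CPM (log2 fold change 2.12, SE 0.33, adjusted p = 3.24e-05). Replicate 2 of ESA was the lowest library for both genes, and the ESA and Fer-1 groups did not overlap. Gja5 and Zbtb8b were the members of these whose groups overlapped, through a low Fer-1 value in replicate 2, and Serpinb1a was not called without replicate 2 of ESA.

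By the same rule, the 12 that fell most were Serpinb2, Ngef, Mocos, Prl2c3, Vmn2r79, Fosb, Lce1h, Crct1, Ivl, Osgin1, Hmox1 and Esam, with log2 fold changes from -4.26 to -2.27. Serpinb2, the plasminogen activator inhibitor 2, had 1.45, 19.0 and 1.87 CPM with ESA, 0.175, 0.519 and 0.212 with Fer-1 and 0.234, 0.0661 and 0.241 with vehicle (log2 fold change -4.26, SE 0.63, adjusted p = 2.03e-05). Replicate 2 of ESA was far above the other ESA libraries for this gene, and the Fer-1 libraries held few counts. Mocos, which encodes molybdenum cofactor sulfurase, had 6.57, 12.2 and 6.44 CPM with ESA, 1.18, 1.50 and 1.06 with Fer-1 and 1.45, 0.926 and 1.62 with vehicle (log2 fold change -2.73, SE 0.25, adjusted p = 1.66e-08). Lce1h, Crct1 and Ivl are genes of the keratinocyte cornified envelope and stood at 0.328 to 12.3 CPM with ESA. Lce1h was the one of the 12 whose groups overlapped, and it was not called without replicate 2 of ESA with Fer-1. Prl2c3 and Vmn2r79 belong to families of near-identical genes, so their values are uncertain.

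The same addition of Fer-1 to ESA in senescence-induced cells changed fewer genes: 677 (4.18% of those tested) after H2O2 and 383 (2.37%) after etoposide. After H2O2, 184 were higher and 493 lower, and after etoposide 73 and 310. Of the 493 genes lower after H2O2, 370 were also lower in uninduced cells, which is 75.1% of the former and 23.7% of the 1562 lower genes of uninduced cells. For the 184 higher genes the shared count was 141, or 76.6% and 8.35%. With etoposide, 231 of the lower genes were shared (74.5% and 14.8%) and 46 of the higher ones (63.0% and 2.73%). No gene was called in opposite directions with H2O2, and 2 were with etoposide, Zrsr1 and Mettl7a1, which fell in uninduced cells and rose after etoposide. These comparisons share no library with that of the uninduced cells. Their counts depended on the libraries fitted: with only the 6 libraries of the groups compared, 6 genes passed after H2O2 and 24 after etoposide.

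ATF4 and ERK genes fell in all 3 states. The count of ATF4 targets lower was 23 of 35 in uninduced, 19 after H2O2 and 18 after etoposide, with medians of -0.37, -0.37 and -0.38. For ERK feedback genes and ligands the counts were 18, 16 and 15 of 25. The induced counts were not recomputed without single libraries. Over all genes, calls went from 677 to 61 without replicate 1 of ESA after H2O2, and from 383 to 75 without that of etoposide. Slc7a11 fell by 1.98 after H2O2 (adjusted p = 5.55e-04) and by 1.89 after etoposide (adjusted p = 0.00185). With ESA it had 58.6, 7.28 and 10.3 CPM after H2O2 and 48.4, 12.0 and 6.20 after etoposide, and with Fer-1 8.15, 2.82 and 4.48 and 7.81, 4.73 and 2.47. Hmox1 fell by 1.56 (adjusted p = 0.00545) and 1.49 (adjusted p = 0.0112), and Fosb by 2.48 and 2.28.

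Proteasome and NRF2 lists had medians nearer to 0 in the induced cells. Of 31 proteasome subunits 0 were lower after H2O2 and 0 after etoposide, with medians of -0.09 and -0.14 against -0.49 in uninduced cells. Over all 16194 genes tested, 493 were lower after H2O2 and 310 after etoposide, so a count of 0 of 31 is near that share. The NRF2 medians were -0.05 and -0.13, with 6 and 5 of 37 lower. When the difference between states was tested gene by gene, 28 genes (0.173% of those tested) differed between H2O2-induced and uninduced cells and 52 (0.321%) between etoposide-induced and uninduced cells. Those included 6 proteasome genes for H2O2 and 3 for etoposide, Psmc1, Psmd1 and Psmd11, and 2 NRF2 targets for H2O2, Mocos and Gsr, and 4 for etoposide, Mocos, Gsr, Gsta4 and Slc48a1. Each of these fell in uninduced cells and had a log2 fold change nearer to 0 in the induced cells. Gsr, for example, fell by 0.87 in uninduced cells and had log2 fold changes of -0.02 after H2O2 and -0.05 after etoposide (adjusted p of the difference = 0.0338 and 0.0362). Gabarapl1, Hspb8 and Mlkl differed in the same way against both induced states. Without replicate 2 of the uninduced ESA libraries, 5 genes differed for H2O2, namely Mocos, Mlkl, Impact, Gabarapl1 and Ptgs2os, and 6 for etoposide.

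Mocos had the smallest adjusted p for the difference between states against both induced states. In uninduced cells it fell by 2.73, whereas its log2 fold change was -0.03 after H2O2 and -0.20 after etoposide, where ESA libraries had 7.34, 3.51 and 5.56 and 6.83, 3.39 and 6.61 CPM and Fer-1 libraries 5.70, 4.47 and 5.31 and 5.08, 2.93 and 6.34 CPM. Vehicle libraries had 6.11, 3.77 and 4.17 CPM after H2O2 and 6.79, 2.37 and 3.37 after etoposide, against 1.45, 0.926 and 1.62 in uninduced cells. In both induced states the ESA and vehicle libraries of Mocos overlapped, and ESA against vehicle was not tested there. After etoposide each ESA library was above the vehicle library of its own replicate, and after H2O2 those of replicates 1 and 3 were. The difference between states passed the test in both cases (log2 difference 2.70, adjusted p = 4.29e-05, and 2.53, adjusted p = 2.50e-04). Mlkl, with 15.7, 11.6 and 9.62 CPM with ESA and 11.4, 12.0 and 8.13 with Fer-1 after H2O2, differed as well (log2 difference 1.07, adjusted p = 0.00392). Map1a, which encodes a microtubule-associated protein, fell by 0.83 in uninduced cells and had 0.04 after H2O2 (adjusted p of the difference = 0.00809).

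In uninduced cells, Fer-1 added to ESA-Me changed 596 genes (3.68% of those tested), 282 higher and 314 lower, and the count was 3672 when only the 6 libraries of these groups were fitted. Because the doses of the compounds are uncertain, their values are set side by side and no comparison is made. Of the 314 lower genes 297 were also lower with ESA and Fer-1, which is 94.6% of the former and 19.0% of the 1562, and of the 282 higher genes 255 were also higher, 90.4% and 15.1%. The groups share no library, but libraries of the same replicate number are paired across the treatments. Hmox1 had 245, 451 and 263 CPM with ESA-Me and 125, 138 and 116 with Fer-1 added (log2 fold change -1.27, SE 0.32, adjusted p = 0.0234), and Slc7a11 had 31.2, 36.6 and 41.3 and 13.4, 17.6 and 22.5 CPM (log2 fold change -1.05, SE 0.28, adjusted p = 0.0323). In the lists, 7 of 31 proteasome genes, 7 of 37 NRF2 targets and 14 of 25 ERK feedback genes and ligands were lower, 9 of 26 cholesterol genes were higher, and 0 of 26 mitosis genes were called, with a mitosis median of 0.39.

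**Figure D5:**
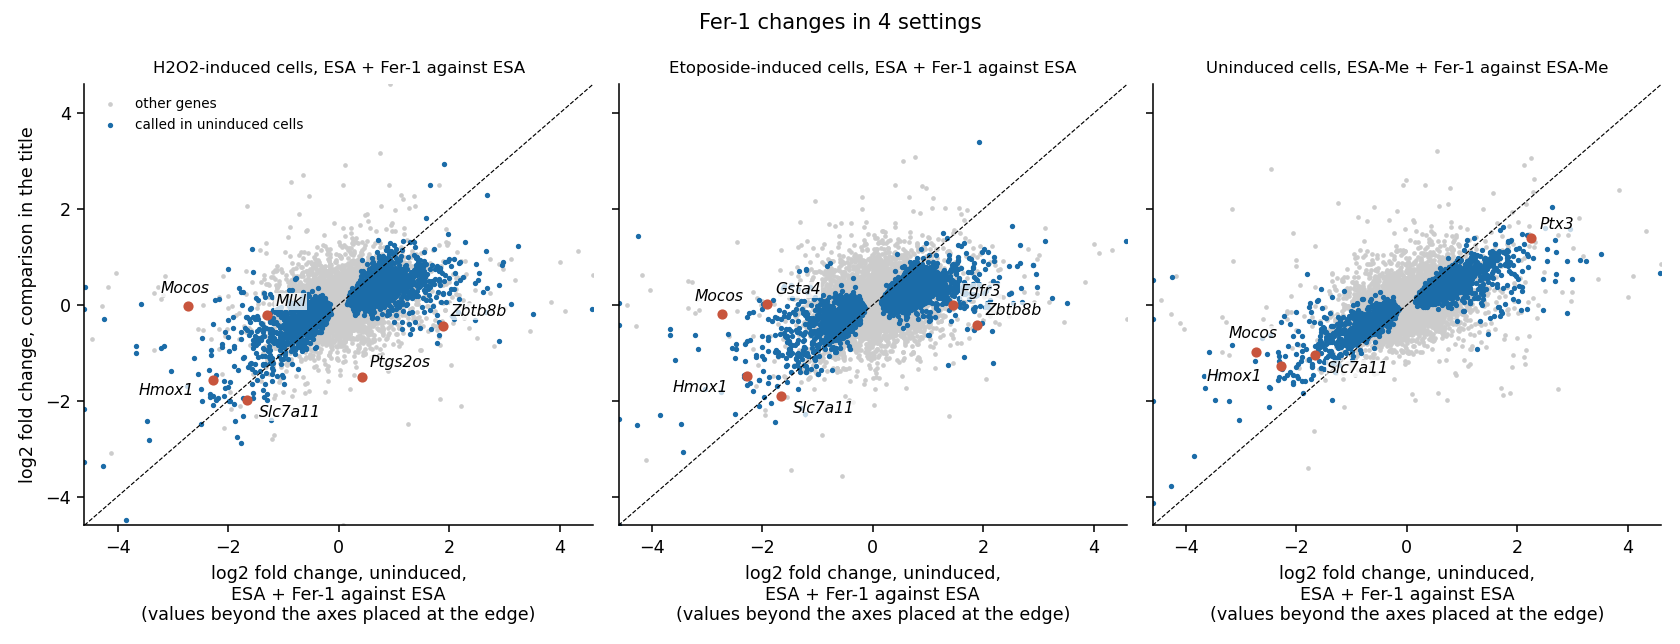
Log2 fold change of each gene on adding Fer-1 to ESA in uninduced cells (x axis) against the change in 3 other settings (y axes): ESA after H2O2, ESA after etoposide, and ESA-Me in uninduced cells. Genes called in uninduced cells are blue and the dashed line marks equal values; Mocos lies near 0 on the y axis after H2O2 (-0.03) and etoposide (-0.20) and at -0.98 with ESA-Me, while Slc7a11 lies at -1.98, -1.89 and -1.05.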

How the data were processed

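The authors deposited raw read counts per gene for 45 libraries (15 groups of 3, called biological replicates in the series' design text). The p-values measure the spread left between these samples once group and replicate number within state are fitted. That spread was estimated over all 45 libraries, and differences between replicate numbers are not part of it. Per the submitters' processing notes the tools were FastQC, HISAT2 2.1.0, featureCounts and edgeR on GRCm38; their settings, strand included, are not given in the sources used here, so Ptgs2 and its antisense gene Ptgs2os may share reads. Of 57010 identifiers, 21212 had no count, 52081 were in GENCODE M21 (source of coordinates) and 147 symbols were shared. Genes passing filterByExpr (16194, with 99.9% of counts) were fitted with edgeR 4.0.16 (R 4.3.3): quasi-likelihood test, TMM scaling, 15 group terms, replicate number within state as a block, 24 residual degrees of freedom, Benjamini-Hochberg adjustment per comparison, threshold 0.05. The difference between states was an interaction contrast in that fit.

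The block follows the deposited grouping sheet and Xist; same-numbered ESA and Fer-1 libraries of uninduced cells deviated together (correlation 0.34 to 0.53; other numbers -0.44 to 0.06). No library copied another of its own group, and copies between groups were not checked. SE is the log2 fold change over the square root of F. The members and gene lists were chosen with earlier results of these data known, so lists are given by counts and medians without a test. Named genes were the 12 highest and 12 lowest called genes with a mean of at least 2 CPM and 1 direction in all pairs, the ferroptosis panel, up to 4 called members per list by adjusted p, and the 4 highest and 4 lowest differences between states; other list members were chosen after their values were seen. The promoter rule took the named genes of smallest adjusted p. Alternatives were no block, fewer libraries, RLE scaling, no filter, DESeq2 1.42.0 and leaving out libraries. The script was tested on simulated data. Some genes are not reported here.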

Additional observations from a re-analysis of the deposited data

Results flagged for a closer look

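Genes are listed here because the change on adding Fer-1 to ESA differed between induced and uninduced cells in edgeR's test of the difference itself (log2 change in induced minus log2 change in uninduced cells, adjusted over all genes). Between H2O2-induced and uninduced cells the difference was 2.7 for Mocos (adjusted p = 4.29e-05), 1.07 for Mlkl (0.00392), 1.59 for Them6 (0.0471) and 0.86 for the microtubule-associated protein gene Map1a (0.00809). These 4 fell in uninduced cells and had log2 fold changes of -0.03, -0.22, 0.24 and 0.04 after H2O2. It was -2.33 for Zbtb8b (0.0257) and -1.11 for the forkhead factor Foxd1 (0.0139), which rose in uninduced cells by 1.89 and 1.24. It was -1.93 for Ptgs2os, the antisense neighbour of Ptgs2 (0.0257), and -1.19 for Smpd3, a neutral sphingomyelinase (0.0359). Those 2 did not pass the test in uninduced cells (log2 fold changes 0.43 and 0.35) and fell by 1.51 and 0.84 after H2O2. Smpd3 had 43.3, 23.4 and 30.3 CPM with ESA and 47.0, 43.0 and 32.8 with Fer-1 in uninduced cells, and 26.8, 31.9 and 25.8 and 17.0, 21.2 and 9.85 CPM after H2O2.

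Between etoposide-induced and uninduced cells the difference was 2.53 for Mocos (2.50e-04), 1.93 for Gsta4 (0.0205), 1.68 for Them6 (0.0302) and 1.89 for Enpp2, which encodes autotaxin (0.0239), all of which fell in uninduced cells. It was -1.8 for Ptx3 (0.0358), -2.31 for Zbtb8b (0.0284), -1.46 for the FGF receptor gene Fgfr3 (0.00754) and -1.34 for the calcium channel gene Cacna1a (0.0268), all of which rose in uninduced cells. Fgfr3 had 2.25, 1.65 and 2.55 CPM with ESA and 6.47, 4.67 and 6.58 with Fer-1 in uninduced cells, and 2.44, 1.87 and 3.72 and 2.21, 2.12 and 3.46 CPM after etoposide. Without the block for the replicate number 0 genes differed for either state, and with only the 12 libraries of the groups compared 1 did, Mocos.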

How the results depend on the processing

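The pairing carried the calls. With no replicate block, 6 genes were higher and 23 lower on adding Fer-1 to ESA in uninduced cells (1688 and 1562 with it), and 123 of the 131 named genes called were no longer past the threshold. The other counts without the block were 23 for ESA against vehicle, 3 after H2O2 (Fosb, Ereg and Sgms2), 0 after etoposide, 0 for ESA-Me, and 0 for both differences between states.

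For Fer-1 added to ESA in uninduced cells, RLE scaling, DESeq2, no filter on low counts and fits of fewer libraries moved the counts by less than 1.5 times. No named gene changed direction under an alternative that tested it, where it was called in that fit or in the main one. For named genes called in neither, the direction was not compared. Leaving out a library, or all uninduced libraries of a replicate, gave 396 to 1481 higher and 445 to 1549 lower genes. The counts moved by over 1.5 times without replicate 2 of ESA, replicate 2 of ESA with Fer-1, and all of replicate 2, 3 or, for higher genes, 1. Without all of replicate 2, 40 named genes were no longer called, among them Nqo1, Fth1, Nfe2l2, Mt1, Hspa1a and Col2a1.

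ESA against vehicle gave 2095 calls from the groups compared only and 1385 to 3102 without a library, fewest without replicate 2 of ESA (1385) or of vehicle (1752). ESA with Fer-1 against vehicle gave 30 calls from the groups compared, 13 with no filter, 2 with the libraries of 1 state, 2 with DESeq2 (Lbh and Ptprq in both) and 0 to 0 without a library.

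Fer-1 after H2O2 gave 6 calls from the groups compared, 1069 with no filter and 61 to 826 without a library (fewest without replicate 1 of ESA or of ESA with Fer-1). After etoposide there were 24, 38 with the libraries of 1 state, 814 with no filter, 616 with DESeq2, and 51 to 524, fewest without the same 2 replicates. ESA-Me gave 3672, 2109 and 1040 in those first 3 settings and 65 to 285 without any 1 library. The difference between states gave 1 gene (Mocos) from the groups compared, 236 and 308 with no filter, 86 and 117 with DESeq2, and 5 to 73 and 5 to 64 without a library, for H2O2 and etoposide. The cause of these shifts was not tested. Levels under about 2 CPM rest on few counts at this depth.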

Other observations

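Genes outside the lists were among those with the smallest adjusted p-values for Fer-1 with ESA against ESA in uninduced cells (edgeR's quasi-likelihood test); the ones below were chosen after their values were seen. Fez1, a kinesin adaptor known from axon growth, had the smallest adjusted p of all genes tested, 1.03e-08, and fell by 1.13 on the log2 scale (SE 0.10). Ch25h, which makes 25-hydroxycholesterol, fell by 1.97 in uninduced cells, and its log2 fold change was -2.01 after H2O2, -1.93 after etoposide and -1.52 with ESA-Me. Each of those values passed the threshold of its comparison. The hyaluronan receptor gene Cd44 fell by 1.36, and had -1.23 after H2O2 and -1.03 after etoposide. Gja1, which encodes connexin 43, fell by 1.12. The cofilin kinase gene Limk1 fell by 1.04, with -0.25 after H2O2, which did not pass the threshold there. The linker histone gene H1f0 rose by 0.58 and the histone variant gene H2az2 by 0.82. The differences between states for these genes are not given here.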
